A study of Mus musculus with 9 samples.

Results

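The 10 genes described here belong to insulin-like growth factor (IGF) signalling. They are the ligand gene *Igf1*, the receptor gene *Igf1r*, the adaptor genes *Irs1* and *Irs2*, and the genes of the IGF-binding proteins *Igfbp2*, *Igfbp3*, *Igfbp4*, *Igfbp5*, *Igfbp6* and *Igfbp7*. They were chosen by name, with earlier results of these data known, and all 10 were present among the 24341 genes listed for each sample. RNA-Seq was performed on 9 samples of murine embryonic fibroblasts (MEFs), which are cells cultured from embryos, here of the C57BL/6 strain: 3 WT, 3 *Atm-/-* and 3 *Sirt6-/-*. *Atm* encodes a kinase that responds to DNA breaks, and *Sirt6* a deacylase of chromatin proteins. The cells carried no other label of treatment and grew in serum-containing medium, which itself supplies IGFs and binding proteins. The labels of all samples name wildtype, Sirt6-/-, P53-/- and Atm-/-P53-/- mice as sources, and so no mice that lacked Atm alone, and the methods of the study describe an immortalized *Atm-/-; p53-/-* line and an immortalized *Sirt6-/-* line from separate laboratories. Effects of the deleted gene, of a possible loss of p53 in the *Atm-/-* samples and of differences between cell lines therefore cannot be told apart here. The labels do not say whether samples of a genotype came from separate cultures, so the tests measure the spread between these samples only.

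IGF1 and IGF2 are secreted growth factors that bind the IGF1 receptor, a tyrosine kinase, which phosphorylates the insulin receptor substrates IRS1 and IRS2. These adaptors pass the signal to PI3K and AKT, while other adaptors feed RAS and MAPK, and AKT keeps FoxO transcription factors out of the nucleus. Outside the cell, most IGF is held by IGF-binding proteins, which limit its access to the receptor, extend its lifetime and are cut by proteases. IGFBP7 binds IGFs with low affinity and is often placed in a related group. Fibroblasts are a major source of IGF1 and of binding proteins in connective tissue.

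Each sample had 32187040 to 33837949 counted reads, so that 3 reads correspond to 0.0887 to 0.0932 CPM (counts scaled to the depth of the sample), a limit that covers counting error only. *Sirt6* had 4 to 7 reads in *Sirt6-/-* and 402 to 487 in WT. *Atm* had 3443 to 3768 reads in *Atm-/-* and 1536 to 1627 in WT. The *Atm* gene count therefore goes against the label if the allele removes the transcript, and gene counts do not show which exons were covered. *Trp53*, the gene of p53, had 806 to 946 reads in *Atm-/-*, 6563 to 7108 in WT and 9081 to 9218 in *Sirt6-/-*. Of 8 fibroblast marker genes, all had a mean of at least 1 RPKM (reads per kilobase of transcript, scaled to the depth of the sample) in WT and *Atm-/-* and 7 in *Sirt6-/-*, where *Thy1* had 0.271 ± 0.291 RPKM. The summed RPKM of these markers was 5773 to 6189 in WT, 2993 to 3009 in *Atm-/-* and 6705 to 6738 in *Sirt6-/-*, but single markers did not all follow the sum. In *Sirt6-/-*, *S100a4* (2901 against 882 RPKM in WT), *Col1a2* (1520.2 against 867) and *Pdgfrb* (35.8 against 13.5) had higher means, and the other 5 markers lower ones, *Col1a1* with 507 against 1739 among them. In *Atm-/-*, *Thy1* had a higher mean (52.8 against 13.3) and the other 7 lower ones. The 3 chondrocyte markers *Sox9*, *Col2a1* and *Acan* summed to 1.20 to 1.29, 12.6 to 15.2 and 53.0 to 62.6 RPKM in the order WT, *Atm-/-* and *Sirt6-/-*. Most of the *Sirt6-/-* sum was *Col2a1* (53.3), while *Acan* had 8.16 in *Atm-/-* and 0.219 in *Sirt6-/-*, and *Sox9* 5.84 and 4.95. In the order WT, *Atm-/-* and *Sirt6-/-*, 4 epithelial markers summed to 9.71 to 11.8, 26.7 to 30.5 and 8.08 to 10.0 RPKM. Their rise in *Atm-/-* was mostly *Krt18* (means of 21.1 against 4.85 in WT). *Krt8* had 5.97 against 4.69, *Cdh1* 0.983 against 0.492 and *Epcam* 0.610 against 0.522. In the same order, 3 endothelial markers summed to 0.504 to 0.896, 1.89 to 2.43 and 0.130 to 0.196. *Kdr* had means of 0.583, 2.11 and 0.0408, *Cdh5* 0.0450, 0.0404 and 0.0820, and *Pecam1* 0.0360, 0.0151 and 0.0395. The 3 adipocyte markers summed to 6.80 to 9.74, 23.1 to 30.2 and 22.3 to 29.3. The adipocyte sums were mostly *Fabp4*. *Pparg* had means of 0.0538, 2.61 and 0.626 RPKM in WT, *Atm-/-* and *Sirt6-/-*. The defining marker *Adipoq* had 0 to 4 reads in WT and 0 in both knockouts. Blood cell and skeletal muscle markers summed to at most 2.89 and 0.470 RPKM in any sample. The part of these cell type markers in the results below was not tested. In bulk RNA, fewer cells of a type and less RNA per cell cannot be told apart.

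The genotypes expressed different sets of IGF-binding proteins, and each had another leading gene. In WT, *Igfbp3* was the most abundant, with 489.9 ± 79.8 RPKM (mean ± SD, n = 3 here and below), followed by *Igfbp4* with 232 ± 7.49 RPKM. In *Atm-/-*, *Igfbp4* led with 247 ± 20.9 RPKM, while *Igfbp3* was down to 11.4 ± 0.452 RPKM. In *Sirt6-/-*, *Igfbp2* led with 612 ± 17.9 RPKM, followed by *Igfbp7* with 234 ± 8.13 RPKM, and *Igfbp3* was the lowest of the 6 with 0.506 ± 0.111 RPKM. RPKM, as deposited, divides the count by the length listed for the gene and by depth. Levels of different genes are compared on that scale only, as the lengths of the transcripts present were not measured.

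Expressed as a share of the summed RPKM of the 6 binding protein genes, *Igfbp3* made up 55.6% ± 3.72 in WT, 3.37% ± 0.129 in *Atm-/-* and 0.0563% ± 0.0122 in *Sirt6-/-*. The share of *Igfbp4* was 26.5% ± 1.88, 73.1% ± 0.867 and 3.58% ± 0.163, and that of *Igfbp2* 0.164% ± 0.00162, 0.474% ± 0.125 and 68.2% ± 0.217. The same gene led in all 3 samples of each genotype. The summed RPKM itself was 909, 779 and 945 in WT, 309, 345 and 358 in *Atm-/-* and 868, 902 and 925 in *Sirt6-/-*. All *Atm-/-* sums lay below all others, with a mean 2.60-fold below WT (exact two-sided permutation test, p = 0.1, the smallest that 3 against 3 samples allow, and p = 0.1 against *Sirt6-/-* as well). The *Sirt6-/-* and WT sums overlapped, with a difference of 21.2 RPKM (exact permutation test, p = 0.9) whose sign changed with TMM library sizes (-33.5) or without WT replicate 2 (-28.1).

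**Figure D1:**
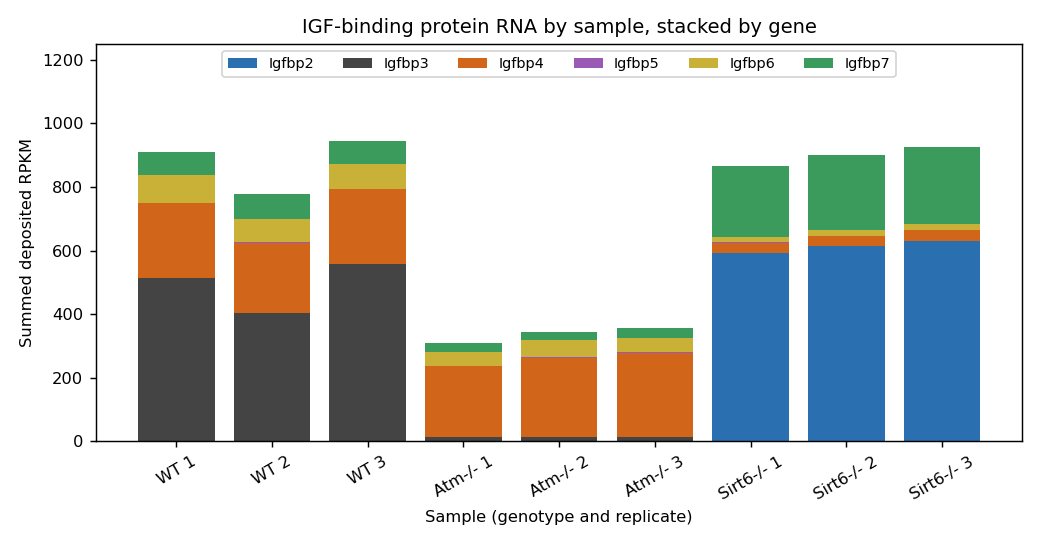
Stacked bars show the deposited RPKM of the 6 IGF-binding protein genes in each of the 9 samples (3 per genotype), on a linear axis from 0. Igfbp3 fills most of the WT bars, Igfbp4 most of the lower Atm-/- bars and Igfbp2 most of the Sirt6-/- bars, while Igfbp5 is too low to be seen.

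To show the regulatory sequence next to the genes that led in each genotype, the 250 bases before a transcript start given in the RefSeq promoter table (GRCm38.p6, given 5′ to 3′ on the strand of the gene) are printed for *Igfbp3* (chr11:7213924-7214173, minus strand), *Igfbp4* (chr11:99040994-99041243, plus strand) and *Igfbp2* (chr1:72824230-72824479, plus strand). For *Igfbp2* the first of its listed starts was taken, which is the outer end of the gene span. The single start listed for *Igfbp3* lies 1575 bases inside the outer 5′ end of its RefSeq span, and that of *Igfbp4* 1239 bases inside. Capitals mark the TATA box letters TATAAA. They also mark the GC box, spelled GGGCGG. Both were searched on either strand, and so was the FoxO motif, which reads GTAAACA. None of these motifs overlaps another in the windows shown.
Igfbp3: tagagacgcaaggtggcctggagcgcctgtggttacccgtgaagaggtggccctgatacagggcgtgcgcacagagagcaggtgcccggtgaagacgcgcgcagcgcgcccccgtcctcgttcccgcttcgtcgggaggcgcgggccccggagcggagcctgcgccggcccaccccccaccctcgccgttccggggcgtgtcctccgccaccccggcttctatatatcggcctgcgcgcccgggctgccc
Igfbp4: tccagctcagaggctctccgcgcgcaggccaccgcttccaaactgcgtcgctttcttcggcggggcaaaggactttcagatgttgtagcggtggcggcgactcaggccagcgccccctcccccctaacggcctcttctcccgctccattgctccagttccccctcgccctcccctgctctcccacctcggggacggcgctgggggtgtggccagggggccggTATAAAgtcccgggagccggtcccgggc
Igfbp2: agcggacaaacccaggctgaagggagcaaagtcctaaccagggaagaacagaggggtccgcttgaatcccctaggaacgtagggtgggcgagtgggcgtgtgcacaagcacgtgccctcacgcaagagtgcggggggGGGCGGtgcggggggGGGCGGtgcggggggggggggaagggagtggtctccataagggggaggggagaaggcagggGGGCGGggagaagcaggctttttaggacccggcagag
*Igfbp4* held 1 TATAAA, which starts 28 bases before the listed start, and *Igfbp2* held 3 GGGCGG. Only the exact letters were searched, and *Igfbp3* held none of them. Its window does hold tatatat near its end, a spelling that was not among those searched. Of 32851 windows of the same length, 12.4% held TATAAA, 32.7% GGGCGG and 3.17% GTAAACA. All 10 genes had a window in the table. GGGCGG occurred in those of *Igf1r*, *Irs1*, *Irs2*, *Igfbp2* and *Igfbp7*, TATAAA in those of *Igfbp4* and *Igfbp6*, and GTAAACA in none of them. Such matches are letters only and do not show that a factor binds.

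The ligand and the adaptor genes were lower in both knockouts. *Igf1* had 32.3, 22.2 and 33.7 RPKM in the 3 WT samples, 3.37, 4.66 and 4.41 in *Atm-/-* and 1.99, 1.51 and 1.81 in *Sirt6-/-*, without overlap between any genotypes. It was 7.92-fold lower in *Atm-/-* than in WT (-2.99 ± 0.16 in log2, adjusted p = 6.27e-10). Here and below, such a pair of values is the log2 fold change ± its standard error, and each adjusted p comes from the quasi-likelihood test of edgeR, adjusted over all genes tested by the Benjamini-Hochberg method. In *Sirt6-/-* the fall was 17.6-fold (-4.14 ± 0.17 in log2, adjusted p = 1.85e-11), and *Sirt6-/-* was also below *Atm-/-* (1.17 ± 0.22 in log2, adjusted p = 5.47e-05 for *Atm-/-* over *Sirt6-/-*). The 3 comparisons share samples pairwise and are not independent of each other.

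*Igf2*, the gene of the other IGF and not one of the 10, moved the other way in *Atm-/-*. It had 12520, 12827 and 12652 reads in *Atm-/-* against 26, 27 and 23 in WT and 19, 41 and 23 in *Sirt6-/-*, or 95.4 ± 1.5 RPKM against 0.187 ± 0.0153 RPKM in WT (8.82 ± 0.077 in log2, adjusted p = 4.63e-18). At these depths, *Igf1* was the more abundant ligand RNA in WT, whereas *Igf2* exceeded *Igf1* (4.15 ± 0.683 RPKM) in *Atm-/-*. In *Sirt6-/-*, *Igf2* had 0.210 ± 0.0913 RPKM and its difference from WT did not pass the threshold (0.076 ± 0.40 in log2, adjusted p = 0.870). *Ins1* and *Ins2*, the insulin genes, had 0 reads in all 9 samples. By counting error alone, that leaves room for an expected count of up to about 3 reads per sample.

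*Igf1r*, the receptor gene, was higher in *Sirt6-/-* than in the other genotypes. It had 6.70, 7.16 and 7.41 RPKM in WT, 7.56, 7.95 and 7.72 in *Atm-/-* and 11.7, 10.5 and 11.3 in *Sirt6-/-*. All *Sirt6-/-* samples lay above all others, 1.49-fold over WT (0.57 ± 0.056 in log2, adjusted p = 2.87e-07) and with a log2 fold change of -0.59 for *Atm-/-* over *Sirt6-/-* (adjusted p = 6.93e-10). By RPKM all *Atm-/-* samples also lay above all WT samples, but with TMM scaling they overlapped and the difference did not pass the threshold (-0.034 ± 0.053 in log2, adjusted p = 0.585). That value changed sign and passed the threshold when samples were scaled by library totals instead of TMM (log2 value 0.13, adjusted p = 0.0451), a change of scale that raised the median log2 fold change of all genes in that comparison from 0.015 to 0.18.

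The adaptor genes fell by different amounts. *Irs2* had 26.2, 31.5 and 29.8 RPKM in WT, 12.6, 12.3 and 14.3 in *Atm-/-* and 6.72, 7.62 and 6.38 in *Sirt6-/-*, so that the 3 genotypes did not overlap. The falls were 2.50-fold in *Atm-/-* (-1.32 ± 0.075 in log2, adjusted p = 9.27e-10) and 4.49-fold in *Sirt6-/-* (-2.17 ± 0.080 in log2, adjusted p = 3.68e-12). *Irs1* had 8.27, 9.32 and 8.04 RPKM in WT, 7.33, 6.83 and 7.95 in *Atm-/-* and 4.63, 3.85 and 4.48 in *Sirt6-/-*. Its fall was 2.10-fold in *Sirt6-/-* (-1.07 ± 0.078 in log2, adjusted p = 1.07e-08) and 1.30-fold in *Atm-/-* (-0.38 ± 0.071 in log2, adjusted p = 2.86e-04), the smallest change among the members that passed the threshold. With library totals the latter was -0.21 (adjusted p = 0.0150). *Irs2* was the more abundant adaptor in all genotypes, by RPKM, and both were higher in *Atm-/-* than in *Sirt6-/-* (log2 fold changes 0.86 and 0.71, adjusted p = 2.04e-09 and 1.61e-08).

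**Figure D2:**
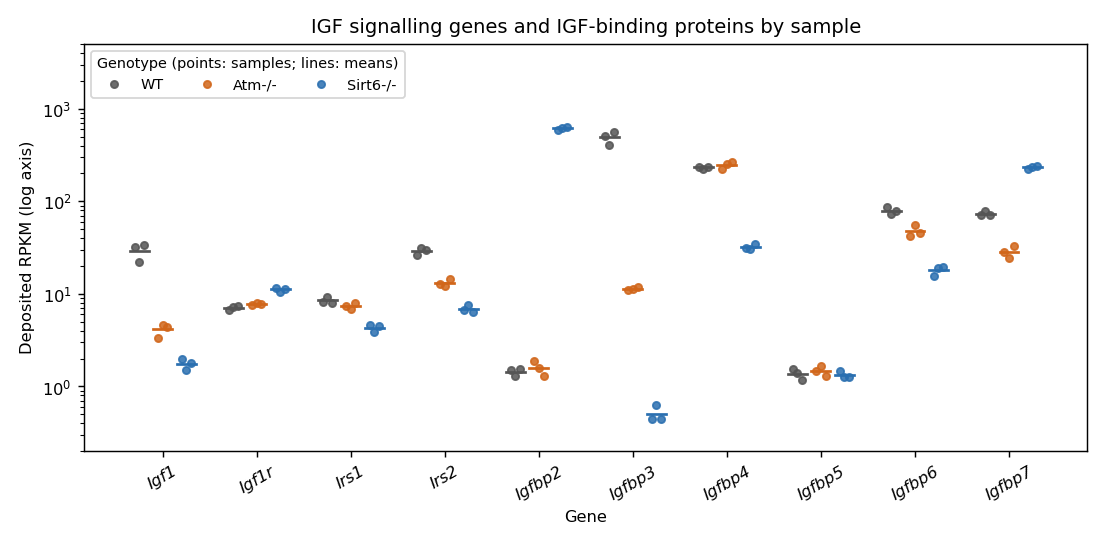
Deposited RPKM on a log axis for the 10 genes, with 1 point per sample, 3 samples per genotype, and lines at the genotype means. Igf1, Irs2, Igfbp3 and Igfbp6 step down from WT to Atm-/- to Sirt6-/-, Igfbp2 stands apart in Sirt6-/- alone, and the 3 genotypes overlap for Igfbp5.

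*Igfbp3*, which encodes the main IGF carrier of serum and is a known p53 target, had the widest range of the members. It had 42393, 32558 and 45226 reads in the 3 WT samples, 877, 928 and 930 in *Atm-/-* and 35, 50 and 36 in *Sirt6-/-*. The fall was 48.3-fold in *Atm-/-* (-5.59 ± 0.11 in log2, adjusted p = 9.86e-15) and 1026-fold in *Sirt6-/-* (-10.00 ± 0.15 in log2, adjusted p = 3.27e-16). By size of change it ranked 16 of 13206 genes in the latter comparison and 364 of 13283 in the former. The remaining level in *Atm-/-* was 21.5-fold above that in *Sirt6-/-* (4.43 ± 0.14 in log2, adjusted p = 5.39e-17). In these samples *Trp53* was low in *Atm-/-* and not in *Sirt6-/-*, as given above, and its part in the level of *Igfbp3* was not tested.

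*Igfbp2*, the gene of a binding protein common in fetal tissue, had 25479, 26346 and 27943 reads in *Sirt6-/-*, against 67, 57 and 68 in WT and 82, 70 and 55 in *Atm-/-*. The rise in *Sirt6-/-* was 399.6-fold (8.64 ± 0.074 in log2, adjusted p = 2.94e-18) and took the gene from rank 10205 to rank 105 of 24341 by mean RPKM. *Atm-/-* samples overlapped those of WT (-0.030 ± 0.25 in log2, adjusted p = 0.923), and the sign of that small value changed with library totals. *Igfbp2* (chr1:72824480-72852474, plus strand) and *Igfbp5* (chr1:72858065-72874865, minus strand) are neighbours that point toward each other, with 5590 bases and no other annotated RefSeq gene between them.

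*Igfbp5*, a binding protein gene of bone and muscle, did not follow its neighbour. It had 307, 272 and 229 reads in WT, 286, 322 and 246 in *Atm-/-* and 275, 240 and 249 in *Sirt6-/-*, with overlap of all genotypes. The log2 fold changes were -0.058 (SE 0.14, adjusted p = 0.735) in *Atm-/-* and -0.13 (SE 0.14, adjusted p = 0.404) in *Sirt6-/-*. At 1.17 to 1.55 RPKM in WT it was among the least abundant of the 10 genes, and its samples overlapped those of *Igfbp2* there. *Igfbp1*, which lies 3539 bases from *Igfbp3* on chromosome 11, had 0 reads in all 9 samples.

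*Igfbp4*, an inhibitory binding protein that the protease PAPP-A cuts, separated *Sirt6-/-* from the other genotypes. It had 236, 223 and 237 RPKM in WT, 224, 250.5 and 265 in *Atm-/-* and 31.7, 30.6 and 34.2 in *Sirt6-/-*. WT and *Atm-/-* overlapped (-0.073 ± 0.056 in log2, adjusted p = 0.263), and that value changed sign with library totals. *Sirt6-/-* was 7.65-fold below WT (-2.94 ± 0.055 in log2, adjusted p = 2.14e-15) and 7.35-fold below *Atm-/-* (adjusted p = 3.26e-20).

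*Igfbp6*, whose product prefers IGF2 over IGF1, fell in both knockouts and further in *Sirt6-/-*. It had 87.2, 72.6 and 77.9 RPKM in WT, 42.6, 54.9 and 45.7 in *Atm-/-* and 15.7, 18.8 and 19.7 in *Sirt6-/-*, and the genotypes did not overlap. The falls were 1.86-fold (-0.89 ± 0.087 in log2, adjusted p = 4.09e-07) and 4.65-fold (-2.22 ± 0.089 in log2, adjusted p = 1.06e-11), and *Atm-/-* was 2.53-fold above *Sirt6-/-* (adjusted p = 3.05e-11).

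*Igfbp7*, a secreted matrix-associated protein, was the only member that changed in opposite directions in the knockouts. It had 70.4, 78.9 and 71.5 RPKM in WT, 28.2, 24.7 and 32.8 in *Atm-/-* and 225, 236 and 241 in *Sirt6-/-*, with all *Atm-/-* samples below and all *Sirt6-/-* samples above WT. It fell 2.88-fold in *Atm-/-* (-1.53 ± 0.089 in log2, adjusted p = 1.23e-09) and rose 2.99-fold in *Sirt6-/-* (1.58 ± 0.055 in log2, adjusted p = 2.06e-12). Compared directly, *Atm-/-* was 8.54-fold below *Sirt6-/-* (-3.09 ± 0.070 in log2, adjusted p = 2.07e-19).

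Counted over the 10 members, 6 were lower, none higher and 4 not past the threshold in *Atm-/-*, where 68.4% of all tested genes differed from WT and 33.6% were lower. In *Sirt6-/-*, 3 were higher, 6 lower and 1 not past the threshold, where 76.6% of genes differed, 39.2% being higher and 37.4% lower. Between the knockouts, 6 were higher and 3 lower in *Atm-/-*, with 75.8% of genes different, 38.0% being higher and 37.8% lower. With CPM after TMM, the samples of the genotypes did not overlap for the same 6, 9 and 9 members, compared with 72.7%, 79.0% and 78.1% of genes. Differences among members were thus about as common as among genes in general. The size of the changes was larger than usual in *Sirt6-/-*, with 6 of 10 members past the threshold and changed at least 4-fold, compared with 15.9% of genes. In *Atm-/-* they were 2 of 10, compared with 12.5%, and between the knockouts 4 of 10, compared with 12.4%. The median absolute log2 fold change of the members was 2.19 in *Sirt6-/-* and 0.63 in *Atm-/-*, against 0.54 and 0.40 over all genes tested. Because the members were chosen with earlier results of these data known, these sizes and shares only describe the chosen genes. With library totals, *Igf1r* was counted as higher in *Atm-/-*, which made 1 higher and 6 lower, while all genes split into 6156 higher and 3326 lower in place of 4611 and 4469.

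**Figure D3:**
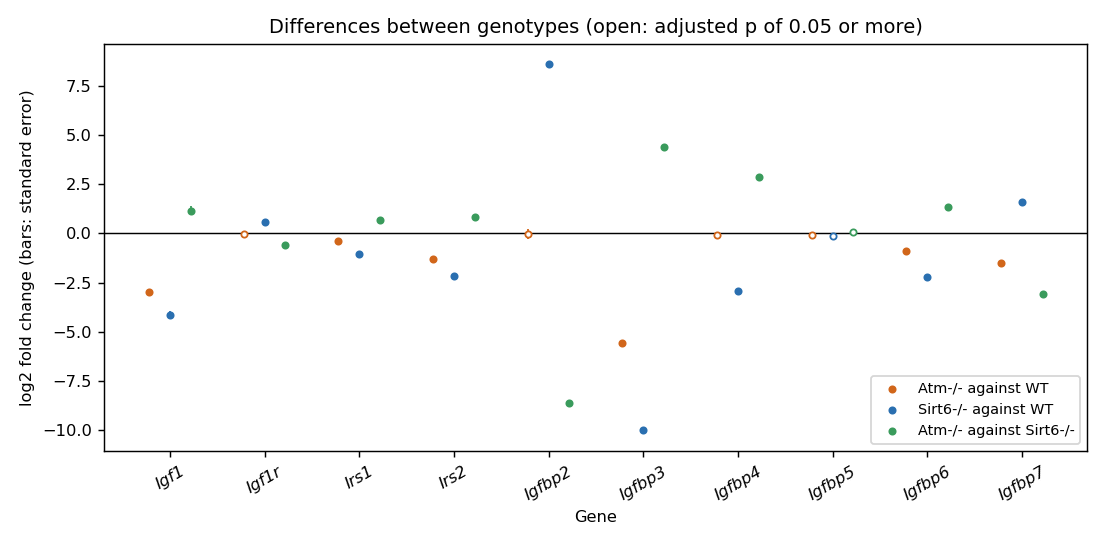
Points give the log2 fold change of each of the 10 genes in 3 comparisons of 3 against 3 samples, bars its standard error, and open points an adjusted p of 0.05 or more. Igfbp3 in Sirt6-/- lies lowest at a log2 fold change of -10.00 and Igfbp2 highest at 8.64, while the open points cluster at 0.

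Within WT, the order of levels by mean RPKM was *Igfbp3*, *Igfbp4*, *Igfbp6*, *Igfbp7*, *Igf1*, *Irs2*, *Irs1*, *Igf1r*, *Igfbp2* and *Igfbp5*. The samples of *Igfbp6* and *Igfbp7*, of *Igf1* and *Irs2*, and of *Igfbp2* and *Igfbp5* overlapped there, so these neighbours in the order did not differ beyond their spread. In *Atm-/-* the order was *Igfbp4*, *Igfbp6*, *Igfbp7*, *Irs2*, *Igfbp3*, *Igf1r*, *Irs1*, *Igf1*, *Igfbp2* and *Igfbp5*, with overlap of *Igf1r* with *Irs1* and of *Igfbp2* with *Igfbp5*. In *Sirt6-/-* it was *Igfbp2*, *Igfbp7*, *Igfbp4*, *Igfbp6*, *Igf1r*, *Irs2*, *Irs1*, *Igf1*, *Igfbp5* and *Igfbp3*, and no neighbours overlapped. *Igf1r* thus stood above both adaptor genes in *Sirt6-/-* and below both in WT.

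A list of 67 other genes of the pathway, grouped by role, was then examined. In each comparison 59 had enough reads to be tested. In *Atm-/-*, 17 were higher, 29 lower and 13 not past the threshold, with a median log2 fold change of -0.17 beside 0.015 over all genes. With library totals the split was 25 higher and 26 lower. The share past the threshold was 46 of 59, beside 68.4% of all genes. In *Sirt6-/-*, 21 were higher, 28 lower and 10 not past the threshold, with a median of -0.10 beside 0.024, so that 49 of 59 passed, beside 76.6% of all genes. Library totals gave 24 higher and 26 lower in *Sirt6-/-*. Between the knockouts, 23 were higher and 23 lower in *Atm-/-*, or 46 of 59 beside 75.8% of all genes. That even split became 29 higher and 21 lower with library totals. The same all-gene shares apply to the groups by role below. The 8 genes without enough reads were *Ins1*, *Ins2*, *Igfbp1*, *Igfbpl1*, *Igfals*, *Insrr*, *Irs3* and *Irs4*.

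The 5 genes that act on binding proteins outside the cell passed the threshold against WT in both knockouts, where 68.4% and 76.6% of all genes did. *Pappa*, the gene of the protease PAPP-A, had 46, 53 and 65 reads in WT, 227, 255 and 199 in *Atm-/-* and 202, 161 and 142 in *Sirt6-/-*, and rose in both knockouts (log2 fold changes 1.91 and 1.57, adjusted p = 6.35e-07 and 1.77e-05). The related protease gene *Pappa2* fell in both knockouts (log2 fold changes -1.75 and -2.14, adjusted p = 3.79e-05 and 2.74e-05). It had 80 to 118 reads in WT, 29 to 37 in *Atm-/-* and 14 to 31 in *Sirt6-/-*. Levels of *Pappa* and *Pappa2* were low, with genotype means of 0.0847 to 0.625 RPKM. *Stc2*, the gene of a PAPP-A inhibitor, rose in both knockouts (log2 fold changes 1.54 and 2.21, adjusted p = 1.71e-07 and 9.72e-10). The other inhibitor gene, *Stc1*, had 330, 401 and 260 reads in *Atm-/-*, 44, 39 and 27 in WT and 0, 6 and 2 in *Sirt6-/-*. It rose in *Atm-/-* and fell in *Sirt6-/-* (log2 fold changes 3.03 and -3.77, adjusted p = 1.41e-08 and 7.54e-05), and the knockouts differed directly (6.82 ± 0.36 in log2, adjusted p = 4.42e-13). The size of the fall rests on few reads. *Htra1*, a secreted serine protease gene, was the most abundant of the group with 75.3 ± 7.16 RPKM in WT and fell to 45.8 ± 4.75 RPKM in *Atm-/-* and 39.1 ± 5.89 RPKM in *Sirt6-/-* (adjusted p = 1.45e-07 and 1.10e-07).

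Among the other receptors, *Insr*, the insulin receptor gene, rose from 2.57 ± 0.222 RPKM in WT to 4.04 ± 0.254 RPKM in *Atm-/-* and 6.70 ± 0.314 RPKM in *Sirt6-/-* (log2 fold changes 0.49 and 1.30, adjusted p = 1.08e-04 and 6.08e-10). *Igf2r*, which clears IGF2 by sending it to lysosomes, fell from 27.1 ± 1.37 RPKM to 17.8 ± 0.270 RPKM and 20.4 ± 0.539 RPKM (log2 fold changes -0.77 and -0.49, adjusted p = 2.72e-09 and 3.11e-07). The knockouts also differed from each other in both genes (log2 fold changes -0.79 and -0.26 for *Atm-/-* over *Sirt6-/-*, adjusted p = 3.48e-10 and 6.99e-06).

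Of the 14 adaptors and inhibitors close to the receptor, 12 were tested, with 3 up and 5 down in *Atm-/-* and 3 up and 6 down in *Sirt6-/-* (all-gene shares past the threshold, 68.4% and 76.6%). Library totals gave 6 up and 5 down in *Atm-/-* and 4 up and 5 down in *Sirt6-/-*. *Socs1*, a suppressor of cytokine and insulin signalling, rose most in both (log2 fold changes 2.45 and 2.94), from 10 to 34 reads in WT. *Grb10*, an adaptor that inhibits the insulin and IGF1 receptors, fell most in both (log2 fold changes -0.97 and -6.94, adjusted p = 3.13e-11 and 2.94e-18). It had 17101, 16900 and 16578 reads in WT, 9670, 9393 and 9238 in *Atm-/-* and 141, 146 and 139 in *Sirt6-/-*. *Shc1*, which links the receptor to RAS, was lower in *Atm-/-* than in *Sirt6-/-* (log2 fold change -1.09), the largest fall of the group in the direct comparison, where the largest rise was in *Grb10* (log2 fold change 5.98).

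All 14 PI3K and AKT genes were tested, with 3 higher and 8 lower in *Atm-/-* and 7 higher and 5 lower in *Sirt6-/-*, where the all-gene shares past the threshold were 68.4% and 76.6%. With library totals the *Atm-/-* split was 5 higher and 7 lower, and the call of *Pik3r1* among the 8 (adjusted p = 0.0438) was lost in 9 alternatives. The regulatory subunit gene *Pik3r3* rose most in both (log2 fold changes 1.03 and 1.08). The largest falls were in the catalytic subunit genes *Pik3cd* in *Atm-/-* (log2 fold change -1.51) and *Pik3cb* in *Sirt6-/-* (log2 fold change -1.23). Between the knockouts, *Phlpp1*, an AKT phosphatase gene, was furthest above in *Atm-/-* (log2 fold change 0.98) and *Pik3cd* furthest below (log2 fold change -1.91). In the RAS and MAPK group of 11, 2 were higher and 6 lower in *Atm-/-* (3 and 6 with library totals), and 2 higher and 8 lower in *Sirt6-/-* (3 and 7 with library totals). *Mapk3*, the gene of ERK1, rose most in both (log2 fold changes 0.91 and 1.58), while the MAPK kinase gene *Map2k1* fell most in *Atm-/-* (-0.95) and the RAS exchange factor gene *Sos1* in *Sirt6-/-* (-1.32). In the direct comparison *Hras* had the largest rise (0.85) and *Mapk3* the largest fall (-0.65) on the same log2 scale, and all changes named in these sentences had adjusted p under 0.05.

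In the group of 10 mTOR and GSK3 genes, 4 were higher and 4 lower in each knockout, beside 68.4% and 76.6% of all genes past the threshold. With library totals the *Atm-/-* split was 6 higher and 3 lower, and the *Sirt6-/-* split 5 higher and 4 lower. The call of *Tsc2* in *Atm-/-* was lost in 4 alternatives and that of *Tsc1* in *Sirt6-/-* in 7, both genes of the complex that restrains RHEB. *Rictor*, a subunit of mTOR complex 2, rose most in both (log2 fold changes 0.42 and 2.56, adjusted p = 1.74e-05 and 9.74e-15), and more so in *Sirt6-/-* (log2 fold change -2.13 for *Atm-/-* over *Sirt6-/-*, adjusted p = 5.40e-20). The largest falls were in the kinase gene *Gsk3b* in *Atm-/-* (log2 fold change -0.75) and in *Rheb*, the activator of mTOR complex 1, in *Sirt6-/-* (log2 fold change -0.86), and *Rheb* was the gene furthest above *Sirt6-/-* in *Atm-/-* (log2 fold change 0.43). Of the 4 FoxO factor genes, none was higher and 3 were lower in *Atm-/-*, whereas 2 were higher and 1 lower in *Sirt6-/-*. Of the 3, *Foxo4* no longer passed the threshold in *Atm-/-* with library totals or without WT replicate 1. *Foxo3* had 6.28 ± 0.621 RPKM in WT, 4.84 ± 0.217 RPKM in *Atm-/-* and 19.9 ± 0.485 RPKM in *Sirt6-/-*, and so fell in the one (log2 fold change -0.54, adjusted p = 2.88e-04) and rose in the other (log2 fold change 1.58, adjusted p = 1.11e-10), with a direct difference of -2.10 (adjusted p = 1.52e-16). *Foxo6* fell most in both, from 352, 338 and 415 reads in WT to 118, 105 and 120 in *Atm-/-* and 0, 6 and 0 in *Sirt6-/-* (log2 fold changes -1.82 and -7.49, the latter resting on few reads).

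**Figure D4:**
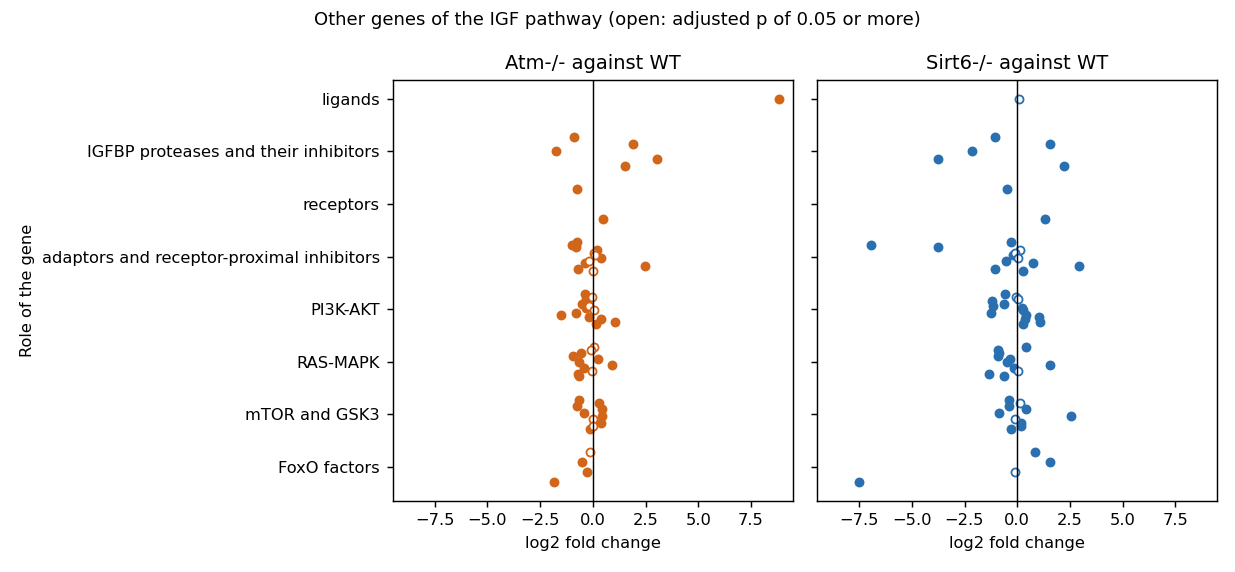
Each point is 1 of the 59 tested pathway genes outside the 10 members, placed by role, with its log2 fold change over WT in Atm-/- on the left and Sirt6-/- on the right; open points have an adjusted p of 0.05 or more. The ligand gene Igf2 stands apart at 8.82 in Atm-/-, and Foxo6 and Grb10 lie lowest in Sirt6-/- at -7.49 and -6.94.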

How the data were processed

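RNA from 9 MEF samples was enriched with oligo(dT) beads and sequenced, as the labels describe. The authors deposited, for each sample, the read count of 24341 genes without normalization, and the authors deposited RPKM, which equals those counts per listed length and per a read total slightly above the counted reads. The submitters' processing notes name mm10, and the aligner and counter are not given in the sources used here. Samples were grouped by the genotype in the labels.

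Counts were compared with edgeR 4.0.16 in R 4.3.3 for each pair of genotypes separately (filterByExpr, TMM, glmQLFit, glmQLFTest), with Benjamini-Hochberg adjustment over all genes and a threshold of 0.05. Standard errors are the absolute log2 fold change divided by the square root of F. RPKM served for levels only. Summed levels were compared with exact permutation tests in scipy 1.17.1. No pair of samples of the same genotype had identical counts. The mean chi-square per gene between 2 samples of a genotype was 16.4 and 15.1 for the pairs with WT replicate 2. The other such pairs had 5.24 to 6.88. The procedure was tested on simulated counts with few changed genes, split evenly between rises and falls. That setting does not cover data such as these, where most genes differed. The alternatives were DESeq2 1.42.0, edgeR's exact test, other scalings and filters, a replicate block, all samples in one fit, and each sample left out. Members and lists were chosen with earlier results of these data known. All members were named, and of the pathway list the extreme rise and fall in each role plus all ligands, receptors and proteases. Positions and sequences come from RefSeq (GRCm38.p6), the assembly that mm10 denotes.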

Additional observations from a re-analysis of the deposited data

Results flagged for a closer look

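*Igfbp7* differed between the knockouts in direction. All *Atm-/-* samples lay below and all *Sirt6-/-* samples above WT, and the direct test of *Atm-/-* over *Sirt6-/-* gave -3.09 ± 0.070 (log2 fold change ± its standard error, adjusted p = 2.07e-19). Leaving out each sample moved it between -3.20 and -3.00.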

How the results depend on the processing

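Of 420 member values recomputed, 411 kept their direction and their side of the threshold, and 9 changed sign, all in the comparison of *Atm-/-* with WT and all in genes that did not pass the threshold with TMM. With library totals in place of TMM these were *Igf1r* (0.13), *Igfbp2* (0.13), *Igfbp4* (0.091) and *Igfbp5* (0.11), of which *Igf1r* passed the threshold. With each sample left out, the log2 fold change ranged over -0.16 to 0.11 for *Igfbp2*, -0.12 to 0.0012 for *Igfbp4* and -0.16 to 0.039 for *Igfbp5*. The difference in summed binding protein level between *Sirt6-/-* and WT was -33.5 RPKM with TMM library sizes, and -28.1 to 54.9 with each sample left out. Counts over all genes, over the members and over the whole pathway list stayed within 1.5 times. By role, library totals moved the adaptors higher in *Atm-/-* from 3 to 6 and the PI3K and AKT genes from 3 to 5. Between the knockouts, the count of IGFBP proteases and inhibitors higher in *Atm-/-* moved from 1 to 2 or 3 in 9 alternatives. With each sample left out, 8545 to 9240 genes differed in *Atm-/-* and 9651 to 10217 in *Sirt6-/-*. Of the pathway genes past the threshold, 42 of 46 in *Atm-/-*, 45 of 49 in *Sirt6-/-* and 39 of 46 between the knockouts stayed so in every alternative.

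With the replicate number as a block, 8833 genes differed in *Atm-/-*, 10041 in *Sirt6-/-* and 10157 between the knockouts, and 6, 9 and 9 members. No label says that a number marks a shared batch. Deviations from the genotype means of same-numbered samples correlated at -0.0135 to 0.0179 for *Atm-/-* and WT and -0.0201 to 0.0277 for *Sirt6-/-* and WT. Between the knockouts they correlated at 0.0179 to 0.0307, and each sample correlated best with its own number there (different numbers, -0.0318 to 0.000302). Deviations from a mean of 3 samples depend on each other, so these small values do not show a shared batch. With 3 samples a genotype, the summed level could not reach a permutation p below 0.1.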

Other observations

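For the 3 members with the widest range between genotypes, the genes with the most similar profile were sought among 13757 genes by the Euclidean distance of log2 CPM, each centred on its mean over the 9 samples. These 9 samples form 3 tight groups, so that similarity means little more than similar differences between genotypes. Nearest to *Igfbp2* was *Lcn2*, the gene of the iron-siderophore binding protein lipocalin 2 (distance 0.918), with 3.03, 3.36 and 870.4 RPKM in WT, *Atm-/-* and *Sirt6-/-*. It was followed by *Vit* (1.42) and the cartilage collagen gene *Col2a1* (1.64), which had 0.0774, 0.162 and 53.3 RPKM. Nearest to *Igfbp3* were *Ces2g* (distance 1.49), *Aldh1a1*, a retinaldehyde dehydrogenase gene (1.66), and *Lrrn4* (1.76). *Ces2g* had 18.5, 0.571 and 0.0214 RPKM in the same order. Nearest to *Igf1* were *Tdrp* (distance 0.697), *Naip2* (0.716) and *Pstpip1* (0.764).

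The 10 members together took 0.196% to 0.236% of all counted reads in WT, 0.135% to 0.142% in *Sirt6-/-* and 0.0801% to 0.0912% in *Atm-/-*, and the ranges did not overlap. Shares of reads are not scaled by gene length, and the listed length was 2442 bases for *Igfbp3* and 1327 for *Igfbp2*. The summed RPKM of the binding protein genes, which is scaled by length, overlapped between *Sirt6-/-* and WT, as given above.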
